A study of Mus musculus with 10 samples.

Results

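The 10 genes described here encode the subunits of the transcription factor NF-kappaB (Nfkb1, Nfkb2, Rel, Rela and Relb) and proteins that hold it back or tune it (Nfkbia, Nfkbid, Nfkbiz, Bcl3 and Tnfaip3). They were taken by gene name from a table of 32767 genes, in which each name matched 1 row. All 10 were among the 10710 genes tested. Expression was measured by RNA sequencing in regulatory T cells of the mouse (Treg), a CD4 lineage that requires Foxp3 and dampens immune reactions. The tested cells were dKO Treg from Foxp3cre/wt mice whose Tcf7 and Lef1 alleles are both flanked by loxP sites (Tcf7fl/fl, Lef1fl/fl), with 2 libraries. They were set against WT Treg from Foxp3cre/wt mice with unaltered alleles (Tcf7wt/wt, Lef1wt/wt), also with 2 libraries. Both groups carried the Foxp3-driven Cre on 1 Foxp3 allele, had a C57BL/6 background and came from spleen and lymph nodes. After magnetic enrichment of CD4 cells, the sort gated on the YFP that marks Cre. Cre is driven by Foxp3, so the deletion is aimed at Treg that express Cre, and cells without Cre, Treg included, keep both genes. Age and the number of animals per library are not given in the labels, and the spread between 2 libraries may be technical. Another 6 libraries of Treg subsets were not used, since their identifiers do not match their values.

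NF-kappaB works as a pair of subunits that binds kappaB sites in DNA. In resting cells the pair is kept in the cytoplasm by inhibitors of the IkappaB family, and signals from the T cell receptor, CD28 and TNF family receptors activate kinases that mark the inhibitor for destruction. The canonical branch releases mainly pairs of p50 (from Nfkb1) with RelA or c-Rel, while the noncanonical branch processes p100 (from Nfkb2) to p52 and releases it with RelB. In Treg, c-Rel takes part in switching on Foxp3 during development in the thymus, and RelA and c-Rel are needed to keep mature Treg functional. Several inhibitors are themselves targets of NF-kappaB, which gives the pathway its negative feedback.

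Tcf7 and Lef1, the targeted genes, encode the related transcription factors TCF1 and LEF1. Lef1 was at 71.6 and 62.8 FPKM (fragments scaled to transcript length and library size) in dKO and at 160 and 167 FPKM in WT, a fall that passed the test (limma log2 fold change -1.27, SE 0.09, adjusted p = 0.016). It did not pass without WT replicate 1 (log2 fold change -1.30, adjusted p = 0.12) or without WT replicate 2 (-1.25, adjusted p = 0.17), with a log2 fold change of like size in both. Tcf7 was at 316 and 272 FPKM in dKO and at 456 and 501 FPKM in WT and missed the threshold (log2 fold change -0.70, adjusted p = 0.081), but passed among protein-coding genes alone (0.034) and among genes with no 0 (0.049). A gene-level value includes exons that stay after deletion, so it checks the labels only in part. Foxp3 was at 126 and 114 FPKM in dKO and at 120 and 106 FPKM in WT, and the 10 Treg and T cell markers summed to 2550 and 2838 FPKM in dKO and to 2812 and 2838 FPKM in WT, with every marker present. The sum hides members of opposite sign. Of the 10, 0 passed over all genes, and 7 had an unadjusted p under 0.05 (3 higher and 4 lower). Ikzf2, which encodes Helios, was at 27.9 and 46.9 FPKM in dKO and at 77.3 and 60.4 FPKM in WT. Izumo1r was at 216 and 300.5 FPKM in dKO and at 483 and 440.2 FPKM in WT, and Nrp1 at 50.8 and 58.4 FPKM in dKO and at 82.7 and 65.6 FPKM in WT. Il2ra, the CD25 gene, was at 209 and 249 FPKM in dKO and at 176 and 187 FPKM in WT, and the T cell receptor chain gene Cd3g, the largest term of the sum, at 1104 and 1135 FPKM in dKO and at 882 and 986 FPKM in WT. These 5 were named after their values were seen, and their part in the members' levels was not tested. Between 10435 and 10678 genes per library reached 1 FPKM. The absolute depth of the libraries is unknown. From the steps of the lowest values, the dKO libraries had 67.6% and 71.0% and WT replicate 2 had 72.3% of the depth of WT replicate 1.

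The bases before annotated start sites of the family were searched for letter matches to binding sites. RefSeq start sites (GRCm38.p6) were at hand for 7 of the 10 genes, with 12 windows of up to 250 bases before a start. Nfkb1, Relb and Nfkbiz were not matched. The kappaB consensus searched for reads 2 Gs, 2 purines, any 2 bases, 2 pyrimidines and 2 Cs, which is its own reverse complement. It was found in 7 of the 12 windows and in 9.55% of the 32851 windows of all genes. By gene, 5 of the 7 had it (Nfkb2, Nfkbia, Nfkbid, Rel and Tnfaip3), and no share per gene was made over all genes. Windows 1, 2 and 3 of Nfkb2 each held it, so the window count leans on 1 gene. Their starts lie 417, 1375 and 1610 bases past the GENCODE start of Nfkb2. The start of the Nfkbid window with matches lies 674 bases past that of Nfkbid. These windows are thus inside the annotated genes. A looser form, 3 Gs, any 5 bases and 2 Cs on either strand, was in all 12 windows and in 45.8% of all windows. A match to the TCF and LEF core (CTTTGAA or the words CTTTGAT or also CTTTGTA or else CTTTGTT, on either strand) was found in 1 window each of Bcl3 and Nfkbid, and in 14.8% of all windows. These are matches of letters and not measured binding. Nfkbia and Rel are shown because their levels ordered the libraries alike, and Tnfaip3 because it had the largest difference between the groups. The shared order rests on a near tie, since Rel was at 21.67 and 21.59 FPKM in WT. A link of the matches to the levels was not tested. Sequences run 5′ to 3′ on the gene's strand, capitals mark kappaB matches, and in Rel a pair of matches overlaps. For Tnfaip3 only the last 30 bases are shown, since GENCODE places the start of the gene 247 bases further upstream.
Nfkbia, chr12:55492648-55492897, minus strand: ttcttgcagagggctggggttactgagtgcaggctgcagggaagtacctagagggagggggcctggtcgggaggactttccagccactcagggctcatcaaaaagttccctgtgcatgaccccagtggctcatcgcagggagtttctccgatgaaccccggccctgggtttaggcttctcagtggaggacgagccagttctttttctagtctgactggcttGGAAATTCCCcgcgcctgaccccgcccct
Rel, chr11:23770971-23771219, minus strand: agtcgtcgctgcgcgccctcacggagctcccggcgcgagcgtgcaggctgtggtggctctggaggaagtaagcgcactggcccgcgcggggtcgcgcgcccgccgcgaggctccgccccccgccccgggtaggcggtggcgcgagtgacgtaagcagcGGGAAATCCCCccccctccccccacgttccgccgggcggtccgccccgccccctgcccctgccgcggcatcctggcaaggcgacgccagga
Tnfaip3, chr10:19015411-19015440, minus strand: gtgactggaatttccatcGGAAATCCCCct

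All 10 genes were well expressed in Treg of both genotypes. Averaged over the 4 libraries, their levels ran from 19.8 FPKM for Nfkbiz, above 56.7% of tested genes, to 155 FPKM for Nfkbia, above 95.1% of tested genes. In order from the highest, Nfkbia was followed by Nfkb1 (136 FPKM), Rela (61.8), Bcl3 (60.5), Nfkbid (34.6), Nfkb2 (34.4), Tnfaip3 (32.2), Relb (29.5), Rel (21.7) and Nfkbiz. The order has 3 clear steps, at which the 4 libraries of the higher gene all lay above those of the lower one. These separate Nfkb1 from Rela, Bcl3 from Nfkbid, and Relb from Rel. The ranges of the other neighbours overlapped, although Nfkbia was above Nfkb1 and Rel above Nfkbiz within each of the 4 libraries. Rela was above Bcl3 in only 1 library, WT replicate 2, so that library sets their order.

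**Figure D1:**
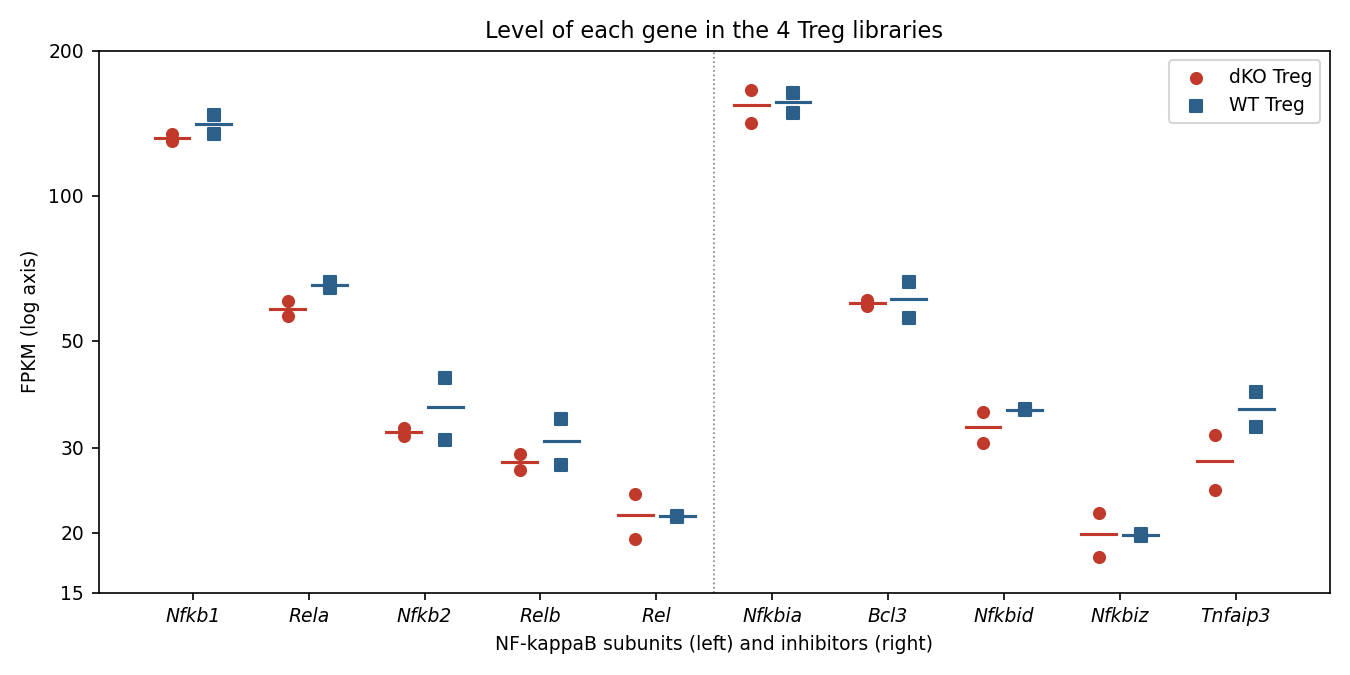
FPKM (log axis) of the 5 subunit genes and the 5 inhibitor genes in dKO Treg (circles) and WT Treg (squares), with 1 point per library and a bar at the mean of 2 libraries. Nfkb1 and Nfkbia stand well above the rest, and only Rela, Nfkbid and Tnfaip3 have both dKO libraries below both WT libraries.

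No member changed past the threshold in dKO Treg. Under limma on log2(FPKM + 1), a scale that slightly understates folds, with adjustment over all 10710 genes, 0 of the 10 members passed at an adjusted p of 0.05, and 0 had an unadjusted p under 0.05. Over all genes the shares were 0.700% (75 genes) and 17.3%. By direction, 0.317% of all genes passed as higher (34 genes) and 0.383% as lower (41 genes). The largest difference was that of Tnfaip3, at -0.36 on the log2 scale. The 95% intervals were read gene by gene and rest on the spread between libraries. That spread may be technical, so the intervals may not cover variation between animals. For each of the 10 members the interval lay between -1 and 1 on the log2 scale, and the widest reach was to -0.76 below zero and to 0.31 above it. Of all tested genes, 90.8% had an interval within the same bounds, so the members' count is near the background. All 10 log2 fold changes were negative, with a median of -0.11, against 47.2% negative and a median of 0.013 over all genes tested. For Rel and Nfkbiz the values were -0.0022 and -0.00045, while their mean FPKM was slightly higher in dKO. For Rel the means were 21.72 FPKM in dKO and 21.63 FPKM in WT, and for Nfkbiz 19.89 and 19.79 FPKM. Of the 10 signs, 6 turned when 1 library was left out, as given gene by gene below.

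**Figure D2:**
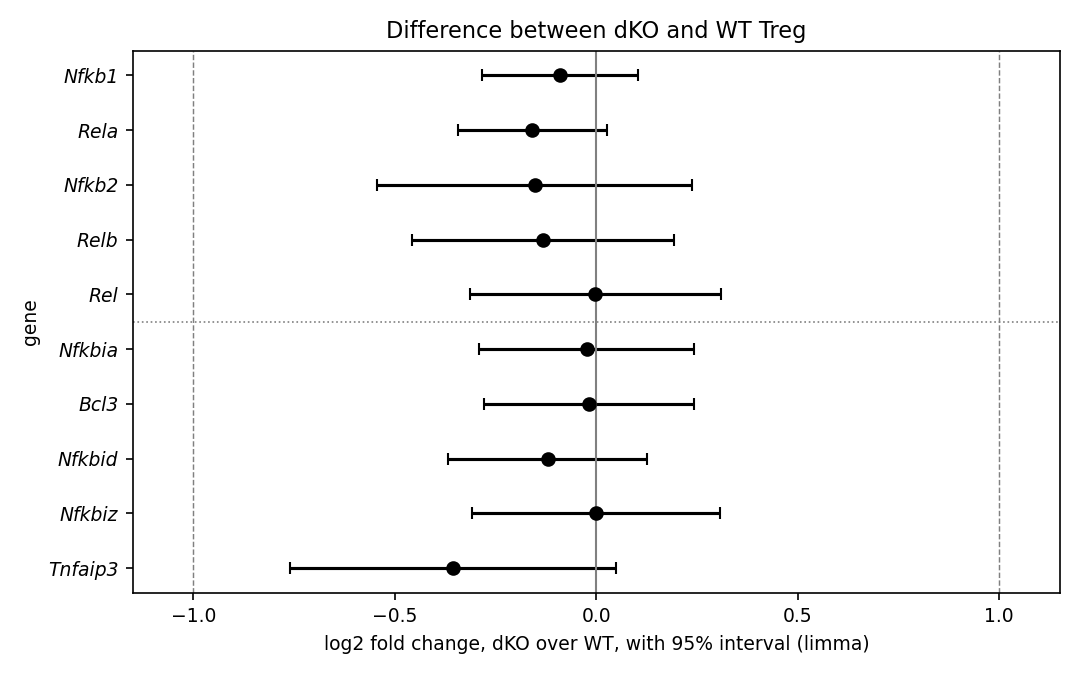
Log2 fold change of dKO over WT Treg for each gene (points) with its 95% interval (bars, limma on 2 libraries per group). Dashed lines mark -1 and 1. Every interval crosses 0 and none reaches a dashed line, with Tnfaip3 reaching furthest down, to -0.76.

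Among the subunits of the canonical branch, Nfkb1, which encodes p105 and its product p50, was at 130 and 134 FPKM in dKO and at 147 and 134 FPKM in WT. The groups overlapped, since dKO replicate 2 was at the level of WT replicate 2 and only WT replicate 1 stood higher. The log2 fold change was -0.091 (SE 0.074, adjusted p = 0.58), with an interval of -0.28 to 0.10. It was -0.023 without WT replicate 1 and -0.16 without WT replicate 2. Nfkb1 lies on chromosome 3 (GRCm38, 135584655 to 135691547), 4.36 Mb from the targeted Lef1 gene on the same chromosome.

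Rela encodes RelA (p65), the subunit with the strongest activation domain in the canonical pair. It was at 60.5 and 56.2 FPKM in dKO and at 64.2 and 66.3 FPKM in WT. Each dKO library lay below each WT library, with a mean in dKO of 58.4 ± 3.03 FPKM and in WT of 65.2 ± 1.43 FPKM (SD, n = 2 each). The log2 fold change of -0.16 (SE 0.07, interval -0.34 to 0.026) did not pass (adjusted p = 0.34). Rela kept a negative sign in each of the 14 alternative analyses, from -0.21 to -0.11. Rela lies on chromosome 19 (5637483 to 5648130).

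Rel encodes c-Rel, the subunit most tied to lymphocytes. It was at 19.4 and 24.1 FPKM in dKO and at 21.7 and 21.6 FPKM in WT. The WT libraries were nearly equal and lay between the dKO libraries, which were 0.30 apart on the log2 scale. The difference of the means was accordingly near zero, at -0.0022 on the log2 scale, with an interval of -0.31 to 0.31. It was 0.15 without dKO replicate 1 and -0.15 without dKO replicate 2 (adjusted p = 0.61 and 0.51). Rel lies on chromosome 11 (23736847 to 23770970), as does Tcf7, 28.5 Mb away.

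The noncanonical subunits were both highest in the same WT library. Nfkb2, the gene of p100 and p52, was at 33.0 and 31.8 FPKM in dKO and at 41.9 and 31.1 FPKM in WT. Relb, its partner RelB, was at 29.2 and 26.9 FPKM in dKO and at 34.4 and 27.6 FPKM in WT. In both genes WT replicate 1 was the highest library and the other 3 were close to each other. The log2 fold changes were -0.15 for Nfkb2 (SE 0.15, adjusted p = 0.65) and -0.13 for Relb (SE 0.13, adjusted p = 0.64). Without WT replicate 1 they were 0.056 and 0.021, and without WT replicate 2 they were -0.36 and -0.29, so 1 library sets the sign in each. Nfkb2 lies on chromosome 19 (46304320 to 46312385) and Relb on chromosome 7 (19606217 to 19629438). Nfkb2 shares 299 exonic bases with Psd on the other strand, and Psd was at most 0.16 FPKM. Nfkb2 also shares 531 exonic bases with the antisense AC114539.1, whose level was not analysed here.

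The make-up of the subunit pool was close in the 2 genotypes. Per unit of transcript length, Nfkb1 took 47.7% and 49.2% of the summed subunit FPKM in dKO, against 47.6% and 47.8% in WT. Rela took 22.3% and 20.6% in dKO and 20.7% and 23.6% in WT. The noncanonical genes Nfkb2 and Relb together took 22.9% and 21.5% in dKO and 24.6% and 20.9% in WT. Rel had the smallest share, 7.13% and 8.81% in dKO and 7.0% and 7.69% in WT. For each of these shares the difference of the group means was smaller than the larger of the gaps between libraries of 1 group. The subunits summed to 272 and 273 FPKM in dKO and to 310 and 281 FPKM in WT. Against each 100 FPKM of subunits there were 101 and 115 FPKM of the 5 inhibitors in dKO and 105 FPKM in both WT libraries. This ratio covers transcripts of the members only. Its inhibitors include Bcl3, Nfkbid and Nfkbiz, whose products can also help transcription, and Tnfaip3, whose product acts upstream of the kinases. The ratio leaves out the IkappaB genes Nfkbib and Nfkbie (means of 34.9 and 18.9 FPKM) and does not measure inhibitor protein per subunit.

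**Figure D3:**
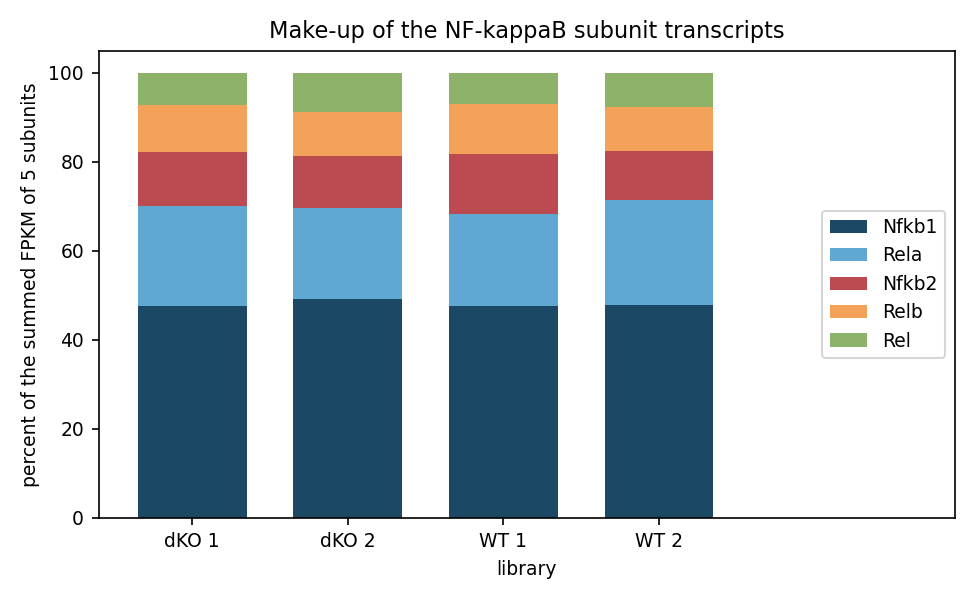
Share of each subunit gene, in percent of the summed FPKM of the 5 subunits, in each library. The bars are much alike in the 4 libraries, with Nfkb1 between 47.6% and 49.2%.

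Among the inhibitors, Nfkbia encodes IkappaBalpha, the main cytoplasmic inhibitor and a classic feedback target. It was at 142 and 166 FPKM in dKO and at 164 and 149 FPKM in WT. The highest and the lowest library were both dKO, so the groups overlapped fully. The log2 fold change was -0.024 (SE 0.10, interval -0.29 to 0.24, adjusted p = 0.93). It was 0.089 without dKO replicate 1 and 0.045 without WT replicate 1. Nfkbia lies on chromosome 12 (55489410 to 55492647).

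The next 3 genes encode atypical IkappaB proteins, which act in the nucleus and can help or hinder transcription depending on the subunits they bind. Bcl3, whose product binds p50 and p52, was at 60.9 and 59.0 FPKM in dKO and at 66.2 and 55.8 FPKM in WT. The dKO libraries lay between the WT libraries, and the log2 fold change was -0.019 (SE 0.10, adjusted p = 0.95), or 0.10 without WT replicate 1. Bcl3 lies on chromosome 7 (19808462 to 19822770), where 161 of its exonic bases overlap the antisense gene Gm16175, which was listed at 0 in all 4 libraries.

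Nfkbid encodes IkappaBNS, which in mouse thymus acts with c-Rel in the induction of Foxp3. It was at 30.6 and 35.6 FPKM in dKO and at 36.1 and 35.9 FPKM in WT. Both dKO libraries were below both WT libraries, but dKO replicate 2 was below them by less than 1 FPKM. The log2 fold change was -0.12 (SE 0.10, interval -0.37 to 0.13, adjusted p = 0.57), and without dKO replicate 1 it was -0.014. Nfkbid lies on chromosome 7 (30421732 to 30428746).

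Nfkbiz encodes IkappaBzeta, an inducible protein known for driving secondary response genes with p50. It was at 17.8 and 22.0 FPKM in dKO and at 19.7 and 19.9 FPKM in WT. As for Rel, the WT libraries were nearly equal and lay between the dKO libraries. The log2 fold change was -0.00045 (SE 0.12, interval -0.31 to 0.31, adjusted p = 0.999), and it was 0.14 without dKO replicate 1 and -0.15 without dKO replicate 2. Nfkbiz lies on chromosome 16 (55811375 to 55838899).

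Tnfaip3 encodes A20, a ubiquitin-editing enzyme that shuts off signalling upstream of the kinases. It was at 24.5 and 31.9 FPKM in dKO and at 39.2 and 33.2 FPKM in WT. Both dKO libraries were below both WT libraries, although dKO replicate 2 and WT replicate 2 were close. The mean was 28.2 ± 5.26 FPKM in dKO and 36.2 ± 4.29 FPKM in WT (SD, n = 2 each), so the dKO mean was 78.0% of the WT mean. The log2 fold change of -0.36 (SE 0.16, interval -0.76 to 0.049) did not pass (adjusted p = 0.33). Without dKO replicate 1 it was -0.17 and without dKO replicate 2 it was -0.54, with the lowest adjusted p of the 14 alternatives at 0.15. Tnfaip3 lies on chromosome 10 (19000910 to 19015657).

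In all, 3 of 10 members (Rela, Nfkbid and Tnfaip3) had both dKO libraries below both WT libraries, where 24.2% of all tested genes did. None had both dKO libraries above, where 26.6% of all tested genes did. The count of members below is near the background share.

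The median gap between libraries of a group was larger for the members than for genes of like level, but not for every member. It was 0.16 in dKO and 0.14 in WT on the log2 scale for the members, and 0.10 and 0.088 for the 4112 tested genes between the lowest and the highest member. No test was made of this difference. Which group had the larger gap differed from member to member, with no sharp line between the sets of genes. Nfkb2, Relb and Bcl3 differed mainly between the WT libraries, by 0.42, 0.31 and 0.24, with dKO gaps of 0.051, 0.11 and 0.044. Rel, Nfkbiz, Nfkbia, Nfkbid and Tnfaip3 differed more between the dKO libraries, by 0.30, 0.29, 0.23, 0.21 and 0.37. In each of these dKO replicate 1 was the lowest library. Of these, Tnfaip3 and Nfkbia also had WT gaps of 0.24 and 0.14. The gaps of Nfkb1 were 0.052 in dKO and 0.14 in WT, and those of Rela 0.10 in dKO and 0.044 in WT. Over the members dKO replicate 1 was lowest for 6 and highest for none, and WT replicate 1 was highest for 6 and lowest for none. Among 8351 tested genes with a mean of at least 5 FPKM, dKO replicate 1 was lowest for 27.9% and highest for 30.4%, and WT replicate 1 was highest for 21.0% and lowest for 33.4%.

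**Figure D4:**
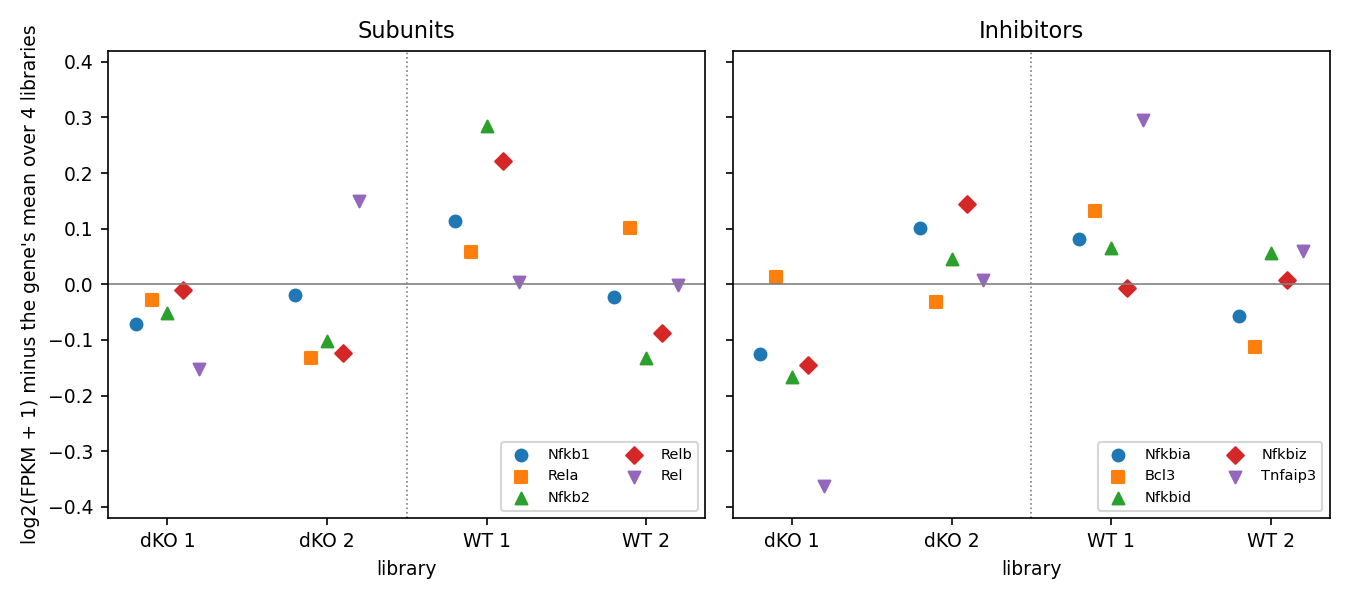
Log2(FPKM + 1) of each gene minus its own mean over 4 libraries, for the subunits (left) and the inhibitors (right), with 1 point per gene in each library. Nfkb2 and Relb stand out in WT replicate 1, and Rel, Nfkbia, Nfkbid, Nfkbiz and Tnfaip3 are lowest in dKO replicate 1.

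Cells other than Treg also express this family, so their markers were read in the same libraries. In bulk samples fewer cells of a type and less RNA per cell cannot be told apart. The 15 myeloid markers summed to 6.67 and 80.9 FPKM in dKO and to 10.9 and 4.28 FPKM in WT, so dKO replicate 2 stood apart. Lyz2, an abundant myeloid lysozyme, was at 0.857 and 31.9 FPKM in dKO and at 3.56 and 0.904 FPKM in WT, while 6 of the 15 markers stayed under 1 FPKM in all libraries. Of the 10 B cell markers, 9 stayed under 1 FPKM in all libraries and the list summed to 23.9 and 25.2 FPKM in dKO and to 15.7 and 15.3 FPKM in WT, which Cd79b carries. The 10 CD8 T and NK cell markers summed to 60.5 and 65.5 FPKM in dKO and to 53.3 and 39.4 FPKM in WT, with Klre1 listed at 0 throughout. Of the 6 tested, 5 had a positive and 1 a negative log2 fold change, and 0 passed. Prf1 was at 17.5 and 10.9 FPKM in dKO and at 3.68 and 4.39 FPKM in WT (limma log2 fold change 1.56, adjusted p = 0.087). Eomes was at 0.592 and 0.838 FPKM in dKO and at 1.43 and 1.37 FPKM in WT. Both were named after their values were seen. The 8 plasmacytoid dendritic cell markers summed to 127 and 125 FPKM in dKO and to 105 and 118 FPKM in WT. Bst2 (68.9 and 75.8 FPKM in dKO, 61.3 and 68.4 FPKM in WT) and Pacsin1 (39.5 and 34.5 FPKM in dKO, 34.4 and 36.9 FPKM in WT) carry that sum, while Siglech, Klk1 and Cox6a2 were at most 0.535 FPKM in any library. Cd4, the marker used for enrichment, was at 187 and 264 FPKM in dKO and at 384 and 411 FPKM in WT, while the T cell receptor chain gene Cd3e was at 382 and 363 FPKM in dKO and at 306 and 307 FPKM in WT. The part of these cells in the members' levels was not tested. Without dKO replicate 2 no member passed, and the log2 fold changes ran from -0.54 for Tnfaip3 to 0.0031 for Bcl3.

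The rest of the pathway was read from 6 lists that together hold 104 tested genes beside the members, some of them in 2 lists. No list gene passed over all genes, and the counts at an unadjusted p under 0.05 stand against the 17.3% of all genes. Among other inhibitors and brakes, 1 of 16 tested genes had such a p and the median log2 fold change was -0.038. This gene was Rnf11, a partner of A20, at 16.1 and 19.6 FPKM in dKO and at 23.4 and 22.8 FPKM in WT (log2 fold change -0.36, SE 0.11, adjusted p = 0.23, or -0.23 without dKO replicate 1). Nfkbie, the gene of IkappaBepsilon, had a positive log2 fold change (0.20), at 20.5 and 20.1 FPKM in dKO and at 18.5 and 16.5 FPKM in WT (adjusted p = 0.33). So did Otulin (0.18), which trims linear ubiquitin chains, at 38.8 and 38.7 FPKM in dKO and at 32.2 and 35.9 FPKM in WT (adjusted p = 0.34). Tnip1, an A20-binding protein and the most abundant of the list, was at 76.0 and 74.1 FPKM in dKO and at 86.3 and 77.3 FPKM in WT (adjusted p = 0.49).

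Of 16 IkappaB kinases and kinases that activate them, 3 had an unadjusted p under 0.05, and the median was -0.052. Ikbke, a noncanonical IkappaB kinase, was at 74.9 and 76.8 FPKM in dKO and at 95.9 and 84.7 FPKM in WT (log2 fold change -0.25, SE 0.08, adjusted p = 0.25, or -0.16 without WT replicate 1). Ripk2, the kinase of the NOD receptors, was at 9.17 and 10.8 FPKM in dKO and at 12.2 and 13.4 FPKM in WT (adjusted p = 0.26). Map3k8, a kinase held by p105, was higher in both dKO libraries, at 10.6 and 12.5 FPKM, than in WT, at 8.57 and 9.41 FPKM (log2 fold change 0.33, SE 0.12, adjusted p = 0.26). Prkcq, the protein kinase C of the T cell receptor pathway, had the highest level, 168 and 167 FPKM in dKO and 148 and 175 FPKM in WT (adjusted p = 0.80).

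Of 21 adaptors and ubiquitin ligases, 4 had an unadjusted p under 0.05, and the median was -0.050. Malt1, a protease of the T cell receptor pathway to NF-kappaB, was at 26.4 and 23.0 FPKM in dKO and at 32.9 and 31.4 FPKM in WT (log2 fold change -0.37, SE 0.09, adjusted p = 0.18). Sharpin, part of the linear ubiquitin ligase, was at 61.4 and 59.0 FPKM in dKO and at 50.7 and 53.3 FPKM in WT (adjusted p = 0.24). Skp1a, part of the ligase that tags IkappaB proteins and of many other ligases, was at 166 and 171 FPKM in dKO and at 129 and 146 FPKM in WT (adjusted p = 0.20). Of the receptors upstream, 12 of 17 were tested, with a median of -0.10 and 1 unadjusted p under 0.05. This was Il18r1, a chain of the interleukin 18 receptor, at 27.3 and 23.2 FPKM in dKO and at 39.0 and 36.9 FPKM in WT (log2 fold change -0.57, SE 0.10, adjusted p = 0.11). Tlr2 was at 1.56 FPKM in both dKO libraries and at 2.26 and 2.15 FPKM in WT (adjusted p = 0.33), and Tnfrsf13c, the BAFF receptor, at 1.13 and 1.09 FPKM in dKO and at 0.674 and 0.472 FPKM in WT (adjusted p = 0.32). Cd27 had the highest level, 224 and 206 FPKM in dKO and 213 and 226 FPKM in WT (adjusted p = 0.87). The untested receptors Cd40, Ltbr, Tnfrsf11a, Il1r1 and Tlr4 were at most 0.555 FPKM in any library.

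Known targets of NF-kappaB had log2 fold changes of both signs. Of 23 tested, 10 had a positive and 13 a negative log2 fold change, the median was -0.036 and 5 had an unadjusted p under 0.05. Ccr7, the lymph node homing receptor, was at 147 and 151 FPKM in dKO and at 208 and 227 FPKM in WT (log2 fold change -0.54, SE 0.07, adjusted p = 0.071). It passed among protein-coding genes alone (adjusted p = 0.032) and among genes with no 0 (0.045). The chemokine gene Ccl5 was at 65.4 and 84.1 FPKM in dKO and at 35.1 and 16.9 FPKM in WT (log2 fold change 1.56, SE 0.35, adjusted p = 0.15). Ccl4 was at 1.44 and 2.23 FPKM in dKO and at 0.218 FPKM in WT replicate 1, and was listed at 0 in WT replicate 2. Ltb, the lymphotoxin beta gene and the most abundant of the list, was at 739 and 715 FPKM in dKO and at 784 and 728 FPKM in WT (adjusted p = 0.73). The feedback and survival targets Traf1 and Birc3, named after their values were seen, were at 95.3 and 96.5 FPKM in dKO against 102 and 92.7 FPKM in WT, and at 95.1 and 89.9 FPKM in dKO against 90.0 and 99.99 FPKM in WT.

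Immediate early genes, which respond to the same receptors within minutes and also to cell handling, had a median of -0.069 over 20 tested, with 6 at an unadjusted p under 0.05. Jun, a subunit of AP-1, was at 4.40 and 3.97 FPKM in dKO and at 8.24 and 8.48 FPKM in WT (log2 fold change -0.85, SE 0.11, adjusted p = 0.069). It passed among protein-coding genes alone (0.030) and among genes with no 0 (0.043). Dusp1, a phosphatase of stress kinases, was at 14.2 and 22.3 FPKM in dKO and at 40.8 and 33.9 FPKM in WT (log2 fold change -1.02, SE 0.22, adjusted p = 0.15), and passed without dKO replicate 2 (0.032). Dnajb1, a heat shock chaperone named after its values were seen, was at 43.9 and 68.6 FPKM in dKO and at 90.7 and 96.4 FPKM in WT. It did not pass on all 4 libraries (log2 fold change -0.76, SE 0.21, adjusted p = 0.20) and passed without dKO replicate 2 (-1.07, adjusted p = 0.022). Jund was at 180 and 173 FPKM in dKO and at 151 and 145 FPKM in WT (adjusted p = 0.18), and Dusp2, the most abundant, at 166 and 203 FPKM in dKO and at 164 and 203 FPKM in WT (adjusted p = 0.98).

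**Figure D5:**
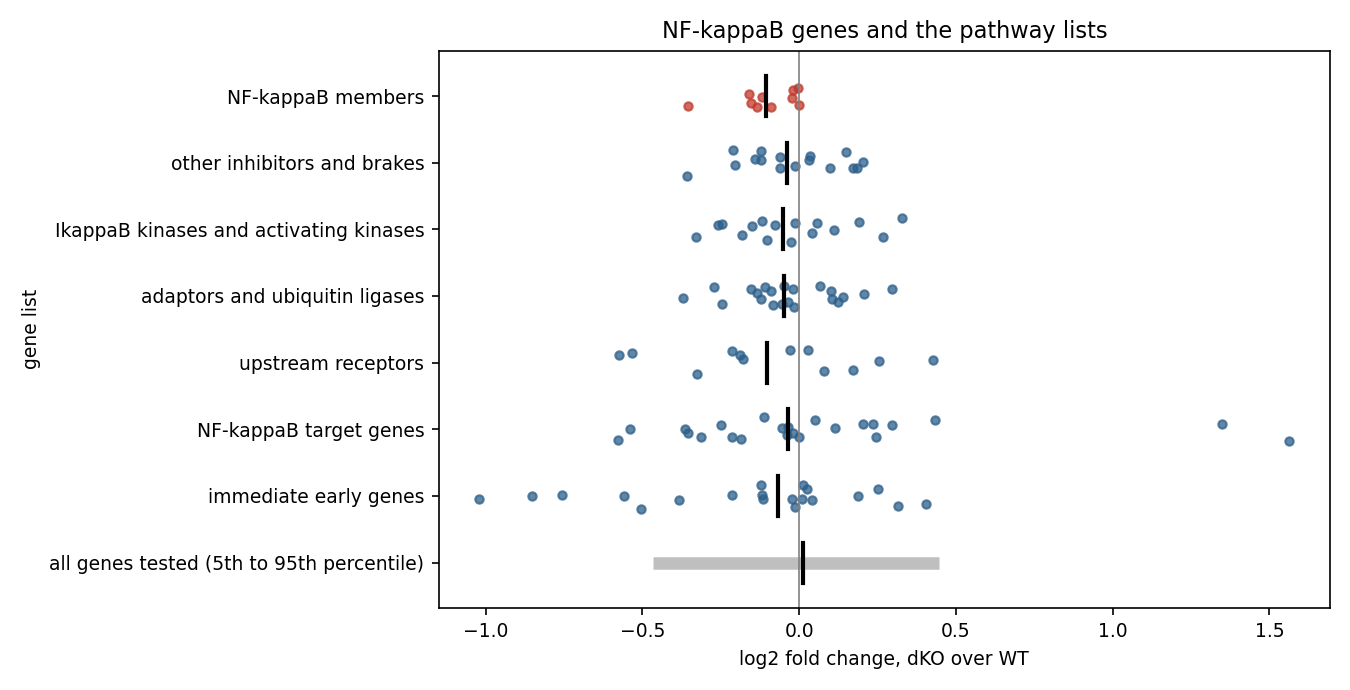
Log2 fold change of dKO over WT Treg for each tested gene of the NF-kappaB family and of 6 pathway lists (points, spread vertically for clarity), with the median of each list as a bar. The grey bar in the bottom row spans the 5th to the 95th percentile of all tested genes (-0.47 to 0.44), and the 10 family members lie within that span, from -0.36 to -0.00045.

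The genes with the pattern nearest to the 3 members of smallest p were found by the distance between profiles of log2(FPKM + 1) over the 4 libraries, each centred on its own mean, among 8225 genes outside the lists with a mean of at least 5 FPKM. For Tnfaip3 these were Nsmf (distance 0.065), Matk (0.066) and Zfp53 (0.071). Matk, for instance, was at 9.73 and 12.0 FPKM in dKO and at 15.1 and 13.0 FPKM in WT. For Rela they were Sgpl1 (0.0072), Rad51d (0.0098) and Xrn1 (0.015), and for Nfkbid Dynll2 (0.020), Blcap (0.022) and Prdx1 (0.023). With 4 libraries many genes share a profile by number alone, so the likeness is a description only.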

How the data were processed

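Strand-marked mRNA libraries (TruSeq Stranded mRNA, RNA from RNeasy Plus Mini columns, per the labels' protocols) were made from sorted Treg. The authors deposited 1 FPKM value per gene and library. STAR, Cuffdiff and GRCm38 are named in the submitters' processing notes, whose versions, annotation and scaling were not given in what was used here. Each of the 4 deposited files lists 32767 genes, alternating with blank rows, in ascending order of identifier, and stops at the row limit of an old spreadsheet format. GENCODE vM21 has 1818 of its 22028 protein-coding genes past the last identifier, and these were not analysed here. Of the names, 27 that had turned into dates were restored by identifier. Positions come from GENCODE vM21 (GRCm38).

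The 4 libraries were tested as log2(FPKM + 1) with limma 3.58.1 (R 4.3.3) and a variance trend, over 10710 genes that reached 1 FPKM in 2 or more libraries. P-values are two-sided, adjusted by Benjamini-Hochberg and called at 0.05 (2 residual and 2.85 prior degrees of freedom). The fit was run on simulated data with independent noise, to check that the median estimate recovered the log2 fold changes put in. That check does not cover power at differences as small as those of the members. Alternatives changed the pseudocount, filter, scaling, variance trend, gene set, replicate block and libraries. The members and lists were chosen with earlier results of these data known. All 10 members are named. Of each list, the 3 genes of smallest p and the most abundant are named, with Tcf7, Lef1 and Foxp3.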

Additional observations from a re-analysis of the deposited data

How the results depend on the processing

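No member passed in the analysis reported or in any of 14 alternatives. The count of 75 genes over the whole table became 6 with no filter, 43 with no variance trend, 171 among protein-coding genes, 117 without genes listed at 0, and 14 to 136 when 1 library was left out (136 without dKO replicate 2, 42 without dKO replicate 1, 21 without WT replicate 1 and 14 without WT replicate 2). With the replicate number as a block, 21 genes passed. The numbers 1 and 2 are not stated to pair animals, and the deviations of same-numbered libraries had a correlation of 0.014 across genes. The block changed no member's call, and among the other named genes it ended that of Lef1 (adjusted p = 0.054), as did no filter (0.097), with the same log2 fold change of -1.27. With 1 library left out, some named genes kept their sign while the log2 fold change moved by over 1.5 times. These were Nfkbie (0.13 without WT replicate 2), Otulin (0.11 without WT replicate 1), Tnip1 (-0.043 without WT replicate 1) and Ltb (-0.0010 without WT replicate 1). Nfkb1, Nfkbid, Tnfaip3, Rnf11 and Ikbke did so too, and their values stand beside their results. The pseudocount also moved values of genes at low levels. For Ccl4 the log2 fold change of 1.35 became 3.41 with a pseudocount of 0.1 FPKM and 0.42 with 5 FPKM. For Jun it went from -0.85 to -0.54 with 5 FPKM. No list gene passed in the analysis reported, 2 passed among protein-coding genes, 2 without genes listed at 0, and 0 to 2 with 1 library left out. Without 1 library the log2 fold change ran from -0.36 to 0.056 for Nfkb2, -0.15 to 0.15 for Rel, -0.29 to 0.021 for Relb, -0.14 to 0.089 for Nfkbia, -0.15 to 0.14 for Nfkbiz, -0.14 to 0.10 for Bcl3, -0.088 to 0.028 for Cd27, -0.14 to 0.16 for Dusp2, -0.0051 to 0.17 for Foxp3 and -0.064 to 0.18 for Prkcq. The sign of Nfkbiz also turned with a pseudocount of 5 FPKM (0.00061) and that of Dusp2 with quantile normalization (-0.00081). The 11 turned signs among 140 values of the members fell on Nfkb2, Rel, Relb, Nfkbia, Nfkbiz and Bcl3. The cause was not tested. With a library left out, the lone library of its group is assumed to vary like the others. The libraries' unknown depth and their number limit the precision.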

Other observations

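Tnfaip3 shared with Nfkb1 and Nfkbid an order in which dKO replicate 1 was the lowest and WT replicate 1 the highest library, which held for 11.2% of all tested genes. The order was picked after the values of Tnfaip3 were seen, so Tnfaip3 meets it by construction. The counts that follow are a description and were not tested. The same order was found in 4 of 12 tested upstream receptors, 6 of 23 NF-kappaB targets, 5 of 20 immediate early genes and 4 of 16 other inhibitors and brakes. It was found in 2 of 16 IkappaB kinases and activating kinases and in 1 of 21 adaptors and ubiquitin ligases. Some activation genes with this order were named after their values were seen, and they do not stand for their lists. Tnfrsf9, the costimulatory receptor 4-1BB, was at 29.9 and 54.1 FPKM in dKO and at 70.8 and 48.8 FPKM in WT. Cd83, a marker of activated lymphocytes, was at 18.7 and 33.1 FPKM in dKO and at 47.6 and 29.9 FPKM in WT. Icam1, an adhesion molecule, was at 17.9 and 21.6 FPKM in dKO and at 27.5 and 23.5 FPKM in WT. For Tnfrsf9 and Cd83 the groups overlapped, and none of the 3 passed (limma adjusted p = 0.46, 0.44 and 0.27). Other genes of the same lists went the other way, such as Tnfrsf4 (log2 fold change 0.17) and Tnf (0.24). Of the tested upstream receptors 5 had a positive and 7 a negative log2 fold change. Of the tested NF-kappaB targets 10 had a positive and 13 a negative one. Of the NF-kappaB targets listed, Vcam1 was untested and stood out in 1 library, at 0.322 and 9.46 FPKM in dKO and at 0.703 and 0.240 FPKM in WT, the same library in which the myeloid markers summed highest.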
